A study of Macaca mulatta with 20 samples.

Results

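The step from 3 to 6 days of human chorionic gonadotropin (hCG) was followed in the corpus luteum of rhesus macaques by setting the 4 arrays of hCG day 15 against the 4 arrays of hCG day 12. These 8 arrays of the 20 in the series were taken by their labelled group. The animals received hCG from luteal day 9 in 2 intramuscular injections per day. The regimen as a whole raised the dose in 9 steps from 15 to 2880 IU. Its longest course in the series was 9 days, and the doses reached after 3 and 6 days are not given here. The corpora lutea were removed on luteal day 12 (after 3 days) or luteal day 15 (after 6 days). The other groups, also of 4 arrays each, were untreated day 10, hCG day 10 (1 day of hCG) and hCG day 18 (9 days). Days of hCG, luteal day and dose go up together from day 12 to day 15 and cannot be told apart, and no untreated corpora lutea of these days were analysed here. Nothing in the labels states that the 4 glands of a group are from 4 animals, so a p-value here covers only the spread from sample to sample.

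The corpus luteum forms from the follicle wall after ovulation and makes progesterone. In early pregnancy the placenta releases chorionic gonadotropin, which binds the gland's LH receptor and keeps it working beyond its usual life. The young gland holds dividing endothelial and stromal cells and a growing bed of vessels, wrapped by pericytes and smooth muscle and supported by fibrillar and basement membrane collagens. As it ages, cell division declines, and macrophages gather in a regressing gland.

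Values are signals in intensity units, the deposited linear brightness of a probe set, and changes are differences of log2(signal + 16), which understates the change of dim genes. The median signal of an array was 31.6 to 43.2 on day 12 and 35.4 to 42.4 on day 15. Signals at the 3' end of actin exceeded those at its 5' end by 0.73 to 1.23 (log2) on day 12 and by 0.56 to 1.14 on day 15. Correlations between arrays had a median of 0.971 within and 0.973 between the groups. On principal component 3 (8.4% of the variance), day 12 replicate 1 and day 15 replicate 2 lay apart from the other arrays of their groups, as did untreated replicate 2. Results that move with these arrays are given without them too. Among marker genes, STAR ran from 11282 to 23031 over the 8 arrays, a level fitting luteal steroid cells. Summed marker signals of T and NK cells, B cells, neutrophils, red cells, follicles and surface epithelium overlapped between the days. Of all the cell type markers measured, 0 had arrays that did not overlap (1.97% of all genes lower and 1.03% higher). The markers are too few to tell 0 from these shares. The T and NK sum held only GZMA and NKG7. Follicles were represented by AMH alone, a dim gene at 6.11 to 39.1 on day 12 and 9.06 to 28 on day 15. The B cell sum was 4.56 to 29.2 on day 12 and 11.3 to 27.9 on day 15, near the floor of the arrays.

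No single gene passed in this step. With limma and Benjamini-Hochberg adjustment over 52707 probe sets, 0 were called (0%), and the smallest adjusted p was 0.14. An unadjusted p under 0.05 was reached by 2705 probe sets (5.13%), 1245 higher (2.36%) and 1460 lower (2.77%) on day 15. The 5.13% is close to the threshold of 0.05 itself, the share expected where nothing differs. For probe sets with a mean signal of at least 100 in either group, the 95% interval of the change had a median half-width of 0.38 on the log2 scale, or 1.3-fold, so small changes were not resolvable with 4 arrays a group. With 1 probe set for each of 14132 genes, the arrays of the 2 days did not overlap for 279 genes lower on day 15 (1.97%) and 145 higher (1.03%). With 4 arrays a group some genes separate in this way without any difference, so a lack of overlap alone does not mark a change.

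Genes were therefore ranked by unadjusted p among those with a mean signal of at least 100 on the higher day and no overlap between the 8 arrays. Of 238 lower and 111 higher genes that met this, counting any probe set of a gene, the first 14 in each direction are described. That ranking used the step itself, so their values here describe and do not test. ADA, adenosine deaminase, which turns adenosine into inosine, led the lower genes. Its signals were 866, 1864, 1544 and 2021 on day 12 and 495, 330, 786 and 449 on day 15. Every day 15 array lay below the lowest day 12 array, and the fitted difference was -1.58 ± 0.25 (SE, log2), or 2.99-fold (limma adjusted p = 0.14). Over all groups ADA averaged 835 ± 128 (SD, n = 4) untreated, 2317 ± 456 after 1 day of hCG, 1574 ± 512 on day 12, 515 ± 194 on day 15 and 377 ± 50.4 after 9 days. DHRS13, a short-chain dehydrogenase, had signals of 536, 492, 890 and 455 on day 12 against 173, 200, 218 and 251 on day 15. Its difference was -1.39 ± 0.23. HAL, histidine ammonia-lyase, the first enzyme of histidine breakdown, was at 176, 269, 283 and 221 on day 12 and at 124, 47.5, 78.6 and 69.5 on day 15. The difference was -1.44 ± 0.28. These 3 enzymes share a course: each was highest on hCG day 10 and was lower on day 15 than in the untreated gland, where ADA stood at 835, DHRS13 at 318 and HAL at 174. That description rests on group means, and HAL's untreated SD was 87.8. LRRC15, a membrane protein with leucine-rich repeats, showed the largest size of change among the 28 leading genes. It was at 210, 171, 312 and 166 on day 12 and at 65.7, 31.6, 54.6 and 44.8 on day 15, a difference of -1.81 ± 0.40 (limma adjusted p = 0.42). Its other probe set, with a mean signal under 100, lay at -0.03.

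**Figure D1:**
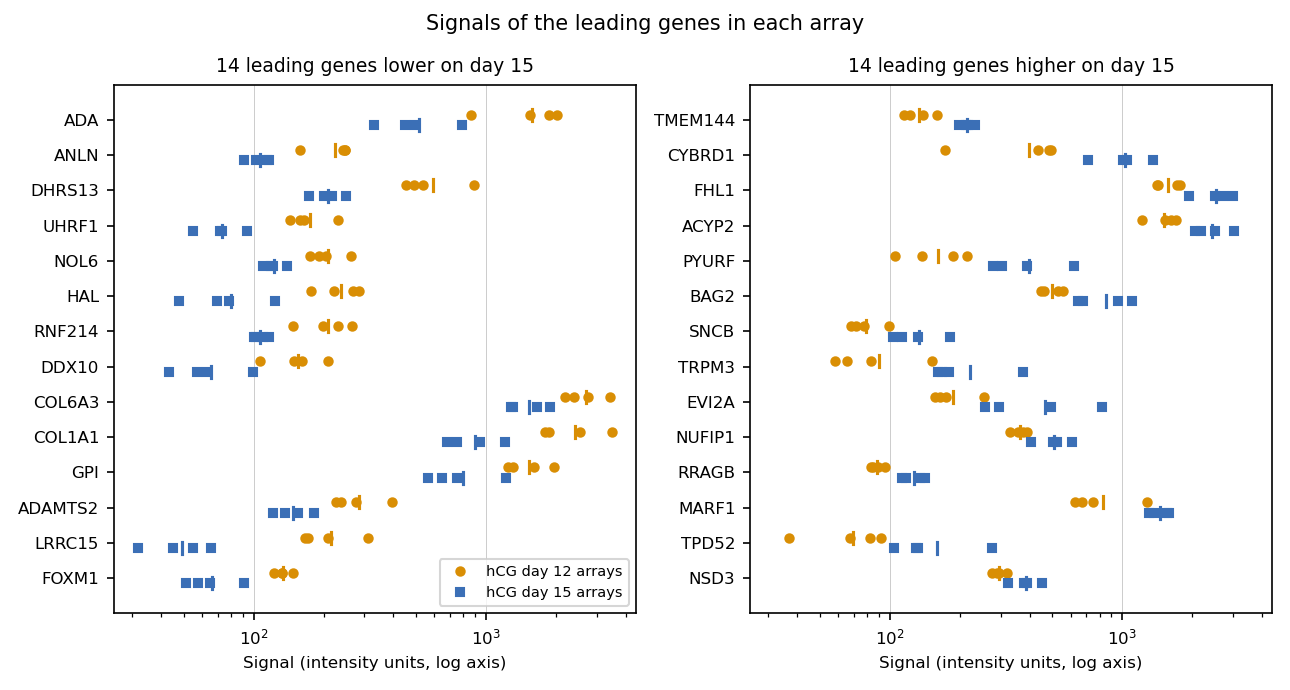
Signals (intensity units, log axis) of the 14 leading lower and 14 leading higher genes in each of the 4 hCG day 12 arrays (circles) and the 4 hCG day 15 arrays (squares). Vertical ticks mark the group means, and no gene has overlapping arrays because the ranking required it.

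Among the other leading lower genes, NOL6 and DDX10 act in ribosome biogenesis. NOL6 was at 204, 191, 262 and 174 on day 12 and at 110, 119, 139 and 121 on day 15. Its other probe sets ran from -0.45 to 0.15, the highest with a mean signal under 100. DDX10, an RNA helicase, differed by -1.09 ± 0.22, although 1 of its other probe sets lay at 0.41. RNF214, a RING finger protein, differed by -0.85 ± 0.17. GPI, the glycolytic isomerase of glucose phosphate, was at 1613, 1970, 1314 and 1245 on day 12 and at 1223, 649, 752 and 566 on day 15, yet its 2 other probe sets, both with a mean signal of at least 100, lay at -0.09 and 0.08. The remaining leading lower genes belong to cell division (ANLN, UHRF1, FOXM1) and to the matrix (COL1A1, COL6A3, ADAMTS2) and are described with those groups.

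CYBRD1, a ferric reductase of iron uptake, was prominent among the genes higher on day 15. It was at 436, 496, 172 and 487 on day 12 and at 1013, 1364, 712 and 1048 on day 15. The lowest day 15 array lay above the highest day 12 array, with a difference of 1.41 ± 0.30, or 2.66-fold (limma adjusted p = 0.32). CYBRD1 averaged 190 ± 72.8 untreated and 181 ± 44.3 on hCG day 10, and reached 1573 ± 260 on day 18. FHL1, a LIM-domain protein abundant in muscle, was at 1769, 1425, 1414 and 1726 on day 12 and at 2516, 2720, 1939 and 3011 on day 15. The difference was 0.67 ± 0.14, but 2 of its 6 probe sets lay below 0, among them the brightest, at -0.07 in the step. EVI2A, a membrane protein gene, was at 175, 164, 254 and 157 on day 12 and at 493, 822, 256 and 296 on day 15. Its groups were separated only by 254 against 256. TRPM3, a cation channel, was at 152, 82.8, 57.9 and 65.2 on day 12 and at 168, 376, 161 and 179 on day 15. BAG2, a co-chaperone of heat shock proteins, was at 556, 446, 460 and 532 on day 12 and at 682, 1108, 645 and 960 on day 15. PYURF differed by 1.20 ± 0.28, but both of its other probe sets lay at -0.18. The others were MARF1, a regulator of RNA in germ cells (0.85 ± 0.25), TPD52 (1.01 ± 0.29), ACYP2, an acylphosphatase (0.68 ± 0.15), TMEM144 (0.63 ± 0.13), SNCB, beta-synuclein (0.63 ± 0.16), NUFIP1 (0.47 ± 0.13), RRAGB, a GTPase of amino acid sensing (0.45 ± 0.13), and NSD3, a histone methyltransferase (0.36 ± 0.11). The limma adjusted p of the 14 ran from 0.32 to 0.69.

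The signs of these genes could be read again in 8 arrays that the step did not use, hCG day 18 against hCG day 10. In that comparison limma called 2744 of 52707 probe sets (5.21%), and 1126 of the 14132 genes (7.97%). All 28 leading genes had the same sign there as in the step, and 21 of the 28 passed (75%), 10 of the 14 higher and 11 of the 14 lower. Among all genes with a mean signal of at least 100, the background for such genes, 68.8% had the same sign and 11.1% passed. In a fit of those 8 arrays alone, 20 of the 28 passed against 7.97% of the genes with a mean signal of at least 100. The ranking by p used the spread of all 20 arrays, these 8 included, so it favoured genes with a small spread in them. The numbers that passed are therefore not separate from the ranking, while the signs do not depend on that spread. ADA fell by 2.56 (adjusted p = 6.8e-06), ANLN fell by 1.71 (adjusted p = 2.8e-06), HAL fell by 2.79 (adjusted p = 7.6e-06) and LRRC15 fell by 3.43 (adjusted p = 3.8e-05). CYBRD1 rose by 3.02 (adjusted p = 6.8e-06), EVI2A by 2.29 (adjusted p = 0.00014) and the same probe set of FHL1 by 1.19 (adjusted p = 4e-05), while its brightest lay at 0.05. The 7 leading genes that did not pass there were COL1A1 (-0.96, adjusted p = 0.075), COL6A3 (-0.24, adjusted p = 0.54), ADAMTS2 (-0.01, adjusted p = 0.99), ACYP2 (0.43, adjusted p = 0.13), TPD52 (0.48, adjusted p = 0.46), NUFIP1 (0.29, adjusted p = 0.26) and NSD3 (0.29, adjusted p = 0.14). All 3 leading matrix genes are thus among those not called.

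The whole set of genes without overlap, leading ones included, was read in those arrays as well. Of 187 such genes lower on day 15 with a mean signal of at least 100 (2.34% of 7997), 165 were also lower on day 18 than on hCG day 10, and 68 passed there. Of 75 such genes higher on day 15 (0.938%), 66 had the same sign, and 30 passed, 28 of them upward. As shares, 88.2% of the lower and 88% of the higher genes kept their sign, and 36.4% and 40% passed. Among all 7997 genes 68.8% had the same sign and 11.1% passed. Across 7997 genes with a mean signal of at least 100, the 2 comparisons correlated with a Pearson r of 0.578 and a Spearman rho of 0.518. This is across genes, which are not independent replicates, and the comparisons share a platform, a tissue and a course but no array.

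**Figure D2:**
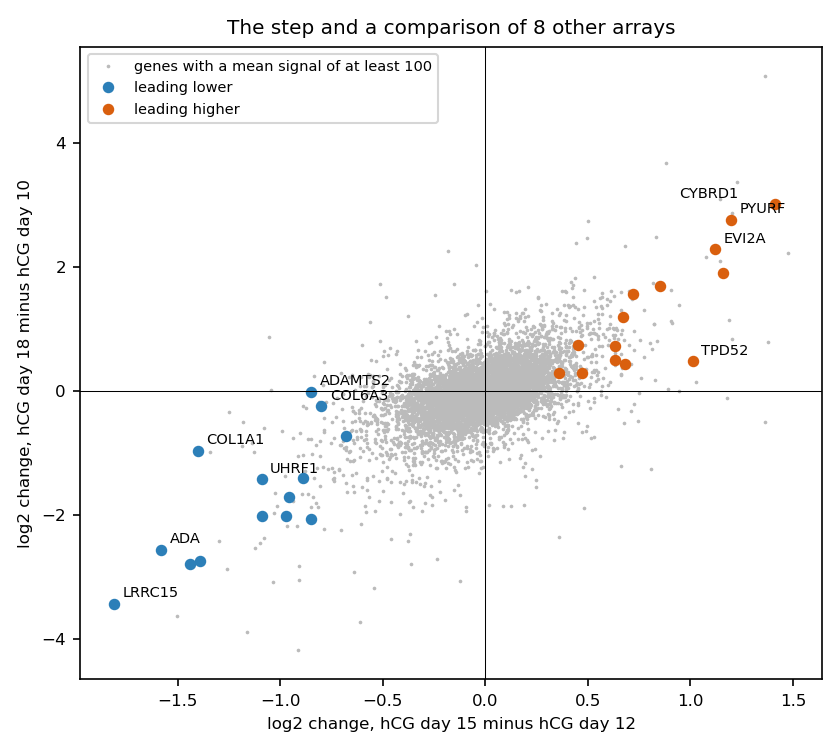
Log2 change from hCG day 12 to hCG day 15 (horizontal axis) against log2 change from hCG day 10 to hCG day 18 (vertical axis), 1 point per gene with a mean signal of at least 100. The 28 leading genes (large points) all lie in the quadrants of equal sign, with ADAMTS2 at -0.01 on the vertical axis and COL6A3 at -0.24, while LRRC15 reaches -3.43 and CYBRD1 3.02.

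Genes of cell division were lower on day 15 as a group. Of 26 mitotic and cell cycle genes measured, 25 lay below 0, against 52.6% of all genes, with a median of -0.46, where the median of all genes was -0.01. The arrays did not overlap for 6 of them, all lower (1.97% of all genes), and 13 had an unadjusted p under 0.05, all lower (4.23% of all genes). As for every list here, members were chosen with earlier results of these data known, and genes of a list are not independent. The list counts therefore describe and do not test. In bulk tissue, fewer cells of a type and less RNA per cell cannot be told apart. ANLN, anillin, which builds the cleavage furrow, was at 158, 242, 248 and 248 on day 12 and at 102, 90.5, 117 and 114 on day 15. The groups did not overlap, and the difference was -0.96 ± 0.15 (limma adjusted p = 0.14). Other ANLN probe sets ran from -0.81 to 0.02, the highest with a mean signal under 100. CCNB1, the cyclin that drives entry into mitosis, was at 348, 383, 341 and 303 on day 12 and at 165, 150, 257 and 152 on day 15, a difference of -0.90 ± 0.20 without overlap. CCNB2, its close relative, was at 197, 236, 204 and 172 on day 12 and at 102, 70.9, 184 and 88.9 on day 15, where replicate 3 lay within the day 12 range. FOXM1, the transcription factor of many mitotic genes, was at 122, 132, 148 and 133 on day 12 and at 65.1, 57.3, 91.1 and 51.0 on day 15. AURKB, the kinase of the chromosome passenger complex, was at 276, 278, 252 and 248 on day 12 and at 161, 165, 213 and 176 on day 15, but its other probe set lay at 0.05. KIF4A, a chromosome-bound motor protein, was at 97.0, 64.4, 86.0 and 69.1 on day 12 and at 49.3, 44.0, 63.3 and 35.3 on day 15. MKI67, the proliferation antigen, had means of 139 and 87.2 (-0.65), and KIF23, a motor of cell separation, had means of 147 and 88.7 (-0.67). Some members lay near 0 or above it: PTTG1 and DLGAP5 both lay at -0.02, and PBK, at 0.30, was the member above 0.

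DNA replication genes were mostly lower too. Of 17 measured, 15 lay below 0, with a median of -0.33. The arrays did not overlap for 6 (1.97% of all genes), and 10 had an unadjusted p under 0.05 (4.23%), all lower. UHRF1, which carries DNA methylation onto newly copied strands, was at 144, 231, 164 and 158 on day 12 and at 71.3, 55.0, 93.6 and 73.1 on day 15. The highest day 15 array lay well below the lowest of day 12, and the difference was -1.09 ± 0.21 (limma adjusted p = 0.22). MCM3, a subunit of the replicative helicase, was at 239, 261, 265 and 210 on day 12 and at 144, 108, 172 and 154 on day 15. MCM5, another subunit, was at 358, 464, 352 and 317 on day 12 and at 266, 147, 253 and 206 on day 15. All 5 MCM helicase genes with a mean signal of at least 100 lay below 0, with a median of -0.41. TYMS, which makes the thymidine nucleotide, was at 527, 482, 518 and 383 on day 12 and at 460, 194, 314 and 208 on day 15, with overlap.

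Over the 5 groups the cell cycle list had a lower mean in each later group. Its mean log2 value per array averaged 8.04 ± 0.17 (SD, n = 4) untreated, 7.79 ± 0.19 after 1 day of hCG, 7.67 ± 0.18 after 3 days, 7.27 ± 0.25 after 6 days and 6.78 ± 0.19 after 9 days. Neighbouring hCG day 10 and day 12 differ by less than their SD. In single arrays the list stood at 7.53, 7.91, 7.70 and 7.55 on day 12 and at 7.24, 7.09, 7.62 and 7.12 on day 15, so day 15 replicate 3 lay within the day 12 range. For the replication list the arrays did not overlap, with 7.66, 7.79, 7.74 and 7.59 on day 12 against 7.45, 7.09, 7.47 and 7.32 on day 15. In the comparison of day 18 with hCG day 10, 18 of the 26 cell cycle genes fell (5.09% of all genes fell there) and 0 rose, with a median of -1.05. There CCNB1 fell by 1.67 (limma adjusted p = 5.4e-05), CCNB2 fell by 1.71 (adjusted p = 0.00017) and UHRF1 fell by 1.42 (adjusted p = 0.00036). Of the 17 replication genes, 6 fell and 0 rose.

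Collagen genes were lower on day 15 than on day 12. All 12 collagens measured lay below 0, with a median of -0.56. The arrays of the 2 days did not overlap for the 4 genes COL1A1, COL1A2, COL6A1 and COL6A3 (1.97% of all genes), and 8 of the 12 had an unadjusted p under 0.05 (4.23%), all lower. COL1A1, the main chain of fibrillar type I collagen, was at 3498, 1794, 1871 and 2556 on day 12 and at 750, 679, 1209 and 947 on day 15. The difference was -1.40 ± 0.30, or 2.65-fold (limma adjusted p = 0.34), and its other probe set, with a mean signal under 100, lay at -0.07. COL6A3, a chain of the microfibrillar type VI collagen, was at 3426, 2757, 2201 and 2388 on day 12 and at 1894, 1288, 1662 and 1305 on day 15, a difference of -0.80 ± 0.17. COL1A2, the partner chain of COL1A1, was at 13154, 6372, 6212 and 7902 on day 12 and at 5533, 3819, 5955 and 4824 on day 15. Day 12 replicate 1, an array that lay apart, was the highest for all 3. Without the 3 arrays apart the collagen median was -0.32 in place of -0.56, with 11 of 12 below 0 and 4 of 12 without overlap (5.63% of all genes lower without overlap in that smaller set), and COL1A2 moved from -0.69 to -0.32. The COL1A1 difference was then -1.09 and that of COL6A3 -0.60. Among all 18 collagen chains by symbol with a mean signal of at least 100, 17 lay below 0, and COL13A1, at 0.17, was the highest.

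Some enzymes that process collagen and proteins of the basement membrane lay on the same side. Not all such enzymes did: of 3 collagen hydroxylases, PLOD2 lay at 0.309, P3H2 at 0.008 and PLOD3 at -0.331. ADAMTS2, which cuts the end piece from procollagen, was at 393, 277, 227 and 237 on day 12 and at 182, 136, 155 and 121 on day 15. The groups did not overlap, and the difference was -0.85 ± 0.19 (limma adjusted p = 0.42), with its dimmer probe sets at -0.41 and 0.02. LOXL1, a lysyl oxidase relative that cross-links elastin and collagen, was at 632, 434, 425 and 448 on day 12 and at 272, 278, 335 and 321 on day 15. HSPG2, perlecan, the large heparan sulphate proteoglycan of basement membranes, was at 1321, 883, 1128 and 812 on day 12 and at 237, 426, 807 and 665 on day 15. Its groups were separated only by 812 against 807, and its other probe set lay at -0.06. BGN, biglycan, a small collagen-binding proteoglycan, was at 836, 500, 501 and 542 on day 12 and at 274, 306, 524 and 308 on day 15, with overlap. NID1, nidogen, which links laminin to type IV collagen, was at 1846, 1941, 1605 and 1894 on day 12 and at 1081, 862, 1695 and 1120 on day 15. All 7 laminin chains with a mean signal of at least 100 lay below 0, with a median of -0.38. In the list of matrix glycoproteins and proteoglycans as a whole, 25 of 33 lay below 0 with a median of -0.29, 9 had an unadjusted p under 0.05 (4.23% of all genes) and 3 had no overlap (1.97%), all lower. Without the 3 arrays apart, 21 of the 33 lay below 0.

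Matrix proteases and their inhibitors were less uniform. Of 21 matrix turnover genes, 13 lay below 0, with a median of -0.06. MMP7, matrilysin, was at 426, 440, 712 and 594 on day 12 and at 372, 307, 435 and 436 on day 15, with overlap. Its other probe sets ran from -0.19 to 0.22, and the 1 with a mean signal of at least 100 did not share the sign. MMP2, gelatinase A, was at 1218, 984, 1370 and 1147 on day 12 and at 713, 548, 1283 and 1092 on day 15, and its difference of -0.44 was -0.21 without the 3 arrays apart. MMP1, interstitial collagenase, was dim, at 10.3 to 23.2 on day 12 and 0.977 to 8.53 on day 15, so its difference depends on the pseudocount: -0.71 at 16, -2.01 at 1 and -0.25 at 64. The other MMP1 probe set lay at 0.08.

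**Figure D3:**
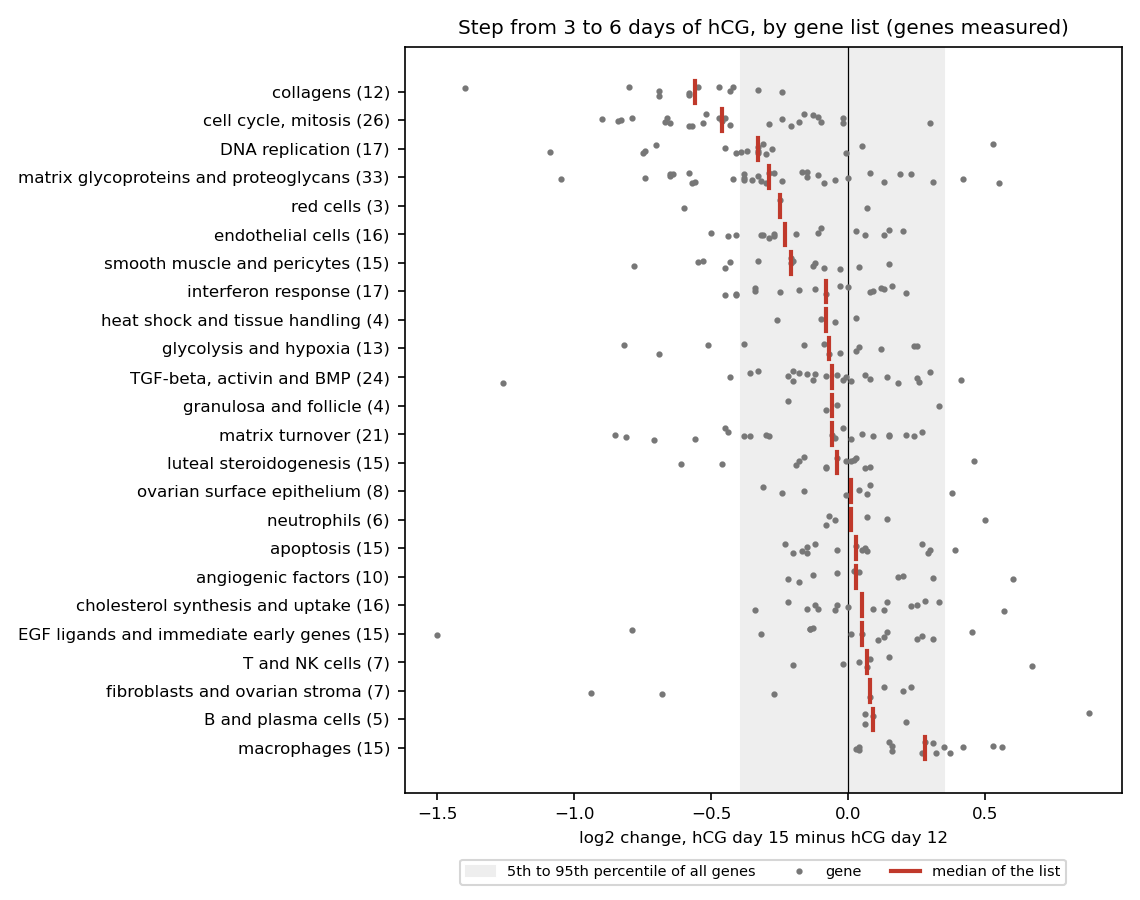
Log2 change from hCG day 12 to hCG day 15 for each measured gene (points) of 24 gene lists, ordered by the list's median (red bars), with the number of genes in brackets. The shaded band is the 5th to 95th percentile of 14132 genes, from -0.39 to 0.35, and shows the spread of single genes, not of list medians. The lowest medians are those of the collagen (-0.56) and cell cycle (-0.46) lists.

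Collagens and some other matrix genes had their highest group mean on day 12. Collagens averaged 9.86 ± 0.16 (SD of list means, n = 4) untreated, 9.88 ± 0.12 after 1 day of hCG, 10.19 ± 0.25 after 3 days, 9.60 ± 0.33 after 6 days and 9.64 ± 0.23 after 9 days. Day 12 was the highest group mean and days 15 and 18 lay within an SD of each other. ADAMTS2 averaged 147 ± 29.1 untreated, 144 ± 31.1 after 1 day of hCG, 284 ± 76.4 after 3 days, 148 ± 26.1 after 6 days and 143 ± 27.4 after 9 days. HSPG2 averaged 514 ± 106 untreated, 566 ± 247 after 1 day of hCG, 1036 ± 233 after 3 days, 534 ± 253 after 6 days and 536 ± 84.7 after 9 days. For both genes the step therefore starts from the highest group mean and ends near that of hCG day 10. Day 12 is measured by the same 4 arrays as the step, so this peak is not separate support for it. In day 18 against hCG day 10, 0 of 12 collagens passed in either direction, with a median of -0.16. Of all genes 7.97% passed there, and a list of 12 is too small to tell 0 from that share. The 33 glycoproteins and proteoglycans had a median of 0.16 there, with 19 above 0, opposite in sign to their -0.29 in the step. Of these 33 genes 4 fell (5.09% of all genes) and 2 rose (2.87%). Among those that fell were BGN (-0.75, limma adjusted p = 0.04) and LAMB1, a laminin chain (-0.90, adjusted p = 0.0048). Of the 21 matrix turnover genes 1 fell (5.09% of all genes) and 2 rose (2.87%). The 1 that fell was MMP7, whose probe set with the values given above fell by 0.83 (adjusted p = 0.0071). MMP2, lower in the step, lay at 0.59 there without passing (adjusted p = 0.11). Whether matrix and cell division genes differ in their course was not tested.

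**Figure D4:**
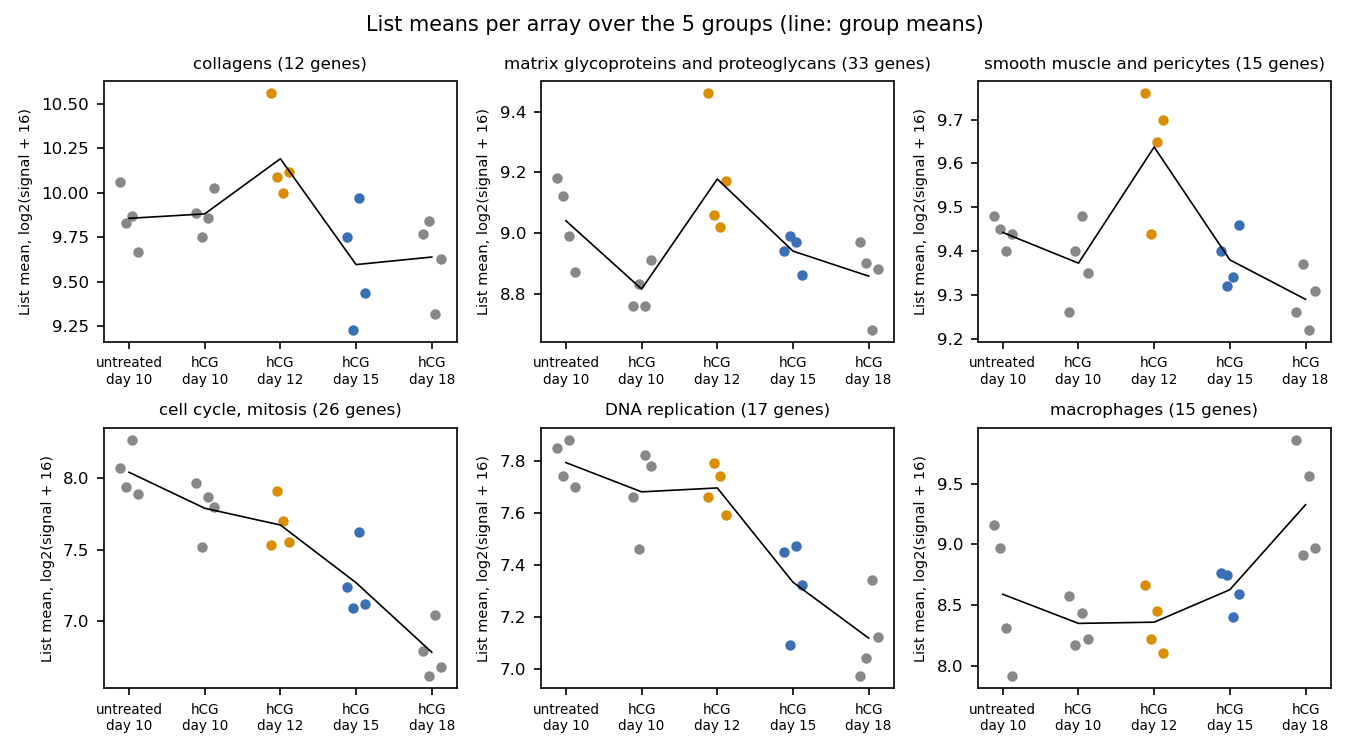
Mean log2(signal + 16) over the genes of 6 lists in each array (points) of the 5 groups, with lines through the group means. The collagen, matrix and smooth muscle lists have their highest group mean on hCG day 12, the cell cycle list goes from 7.67 on day 12 to 7.27 on day 15 and 6.78 on day 18, and the macrophage list is highest on day 18.

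Smooth muscle and pericyte genes were slightly lower on day 15. Of 15 measured, 13 lay below 0, with a median of -0.21, 4 had an unadjusted p under 0.05 (4.23% of all genes) and 2 had no overlap (1.97%), all lower. CSPG4, the NG2 proteoglycan of pericytes, was at 269, 280, 485 and 290 on day 12 and at 120, 168, 226 and 230 on day 15. The difference was -0.78 ± 0.23 (limma adjusted p = 0.69), with its other probe sets at -0.34 and 0.07. KCNJ8, the pore of the ATP-gated potassium channel of vascular muscle, was at 631, 683, 651 and 596 on day 12 and at 377, 527, 511 and 481 on day 15. ACTG2, a smooth muscle actin, was at 751, 657, 597 and 671 on day 12 and at 518, 318, 418 and 625 on day 15. Its groups overlapped, and its difference of -0.53 was -0.31 without the 3 arrays apart. The other ACTG2 probe sets lay at -0.67 and 0.20. NOTCH3, a receptor of vascular muscle, was at 632, 550, 612 and 750 on day 12 and at 379, 360, 573 and 557 on day 15. Of the other contractile genes, MYH11, smooth muscle myosin, lay at -0.55 with overlap, TAGLN, transgelin, at -0.33, CALD1, caldesmon, at -0.09, CNN1, calponin, at -0.03 and MYL9, a myosin light chain, at 0.04. Summed over TAGLN, MYH11 and CNN1, the marker signal was 2860 to 4898 on day 12 and 2493 to 3426 on day 15, with overlap. The list mean was 9.76, 9.44, 9.65 and 9.70 on day 12 and 9.40, 9.32, 9.34 and 9.46 on day 15, where a single day 12 array lay within the day 15 range. KCNJ8 fell by 0.75 (limma adjusted p = 0.0034) and ACTG2 fell by 0.83 (adjusted p = 0.011) from hCG day 10 to day 18. No other member of the list passed there, where 7.97% of all genes passed.

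Other vascular and stromal genes gave a mixed picture. The endothelial list had 11 of 16 below 0 and a median of -0.23, which was -0.08 without the 3 arrays apart. ENG, endoglin, a co-receptor of endothelial TGF-beta signalling, was at 840, 606, 805 and 726 on day 12 and at 413, 447, 618 and 624 on day 15. The summed signal of PECAM1, CDH5, VWF, TEK and KDR was 6403 to 7422 on day 12 and 4465 to 7281 on day 15. ADM, adrenomedullin, a vasodilator peptide, was at 1261, 1165, 1753 and 1755 on day 12 and at 1825, 3295, 1741 and 2333 on day 15, a difference of 0.60 that was 0.35 without the 3 arrays apart. THY1, a surface protein of stromal and perivascular cells, was at 2159, 1456, 1747 and 2201 on day 12 and at 976, 959, 1495 and 1278 on day 15. The summed signal of the fibroblast markers DCN, LUM and TCF21 was 6556 to 9068 on day 12 and 7503 to 9992 on day 15, with overlap. Each of the 3 lay above 0, at 0.13 ± 0.21, 0.23 ± 0.99 and 0.20 ± 0.30, and for LUM a single day 15 array was at 1657. In the fibroblast and stroma list THY1 (-0.68), PI16 (-0.94) and FAP (-0.27) lay below 0 and 4 of the 7 above. The list median was 0.08, and -0.21 with 5 of 7 below 0 without the 3 arrays apart. The part of fibroblast number in the collagen difference was not tested.

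Macrophage genes lay above 0 without passing. All 15 measured lay above 0, against 47.4% of all genes (14 after quantile normalisation or median-centring), with a median of 0.28. Of the 15, 0 had an unadjusted p under 0.05 in limma (2.36% of all probe sets were higher at that level). Groups without overlap were found for 0 (1.03% of all genes higher). A list of 15 is too small to tell 0 from these shares. MRC1, the mannose receptor, was at 927, 1240, 786 and 566 on day 12 and at 2049, 925, 1120 and 1150 on day 15. AIF1, a calcium-binding protein of macrophages, was at 316, 243, 200 and 149 on day 12 and at 309, 443, 244 and 324 on day 15. The summed signal of 5 macrophage markers was 3243 to 4727 on day 12 and 3354 to 5063 on day 15. From hCG day 10 to day 18, 8 of the 15 rose (2.87% of all genes rose there), among them VSIG4, a complement receptor, by 1.33 (limma adjusted p = 0.013), and LYZ, lysozyme, by 1.38 (adjusted p = 0.029). JCHAIN, the joining chain of antibodies, was near the floor of the array, at 3.35 to 27.8 on day 12 and 26.2 to 45.4 on day 15.

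Steroid genes were mixed, and how many lay below 0 depended on the scaling. STAR, which delivers cholesterol into mitochondria, was at 23031, 13754, 11282 and 16735 on day 12 and at 15174, 14854, 19233 and 13361 on day 15. The difference was -0.01, with a 95% interval from -0.38 to 0.35. CYP19A1, aromatase, which makes oestrogen, was at 11461, 9033, 6878 and 10348 on day 12 and at 10432, 5164, 12832 and 9575 on day 15. Its difference was -0.04, with an interval from -0.58 to 0.50, and its sign and that of STAR depend on single arrays. HSD3B2, which makes progesterone from pregnenolone, was at 6468, 8344, 4934 and 6283 on day 12 and at 5075, 3423, 5831 and 3062 on day 15, with overlap. HSD11B1, which regenerates cortisol from cortisone, was at 4798, 5907, 5519 and 6790 on day 12 and at 4269, 3614, 4527 and 4240 on day 15, without overlap, a difference of -0.46 ± 0.13 (limma adjusted p = 0.64). From hCG day 10 to day 18, HSD3B2 fell by 2.14 (adjusted p = 6.8e-06) and HSD11B1 fell by 1.46 (adjusted p = 2.3e-06). HSD3B2 averaged 10323 ± 1530 after 1 day of hCG, 6507 ± 1400 after 3 days, 4347 ± 1320 after 6 days and 2340 ± 447 after 9 days. Of 15 steroidogenic genes, 9 lay below 0 in the step (12 under either other scaling), with a median of -0.04 (-0.09 after quantile normalisation). Of 16 cholesterol synthesis and uptake genes, 9 lay above 0 and 0 had an unadjusted p under 0.05 in limma (5.13% of all probe sets). A list of 16 is too small to tell 0 from that share. The members with the smallest p lay on opposite sides: SREBF2, the transcription factor of the pathway, at -0.34, and MVD, a mevalonate pathway enzyme, at 0.57 (1.05 without the 3 arrays apart).

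Among signalling genes, AREG, amphiregulin, a ligand of the EGF receptor, was at 1580, 4582, 2654 and 3011 on day 12 and at 1822, 284, 1404 and 1154 on day 15. Its difference was -1.50 ± 0.45 with overlap, and -0.94 without day 15 replicate 2. HBEGF, another EGF receptor ligand, differed by -0.79 ± 0.30. FSTL3, a secreted binder of activin, was at 259, 333, 162 and 229 on day 12 and at 109, 94.0, 121 and 51.1 on day 15, without overlap (-1.26 ± 0.29, limma adjusted p = 0.43). From hCG day 10 to day 18, FSTL3 fell by 2.87 (adjusted p = 7.6e-06) and AREG fell by 3.63 (adjusted p = 6.6e-05). In glucose use, HK2, a hexokinase, was at 1254, 825, 1260 and 1467 on day 12 and at 1047, 650, 732 and 921 on day 15. SLC2A1, the glucose transporter GLUT1, differed by -0.69 ± 0.25, but its other probe set, with a mean signal under 100, lay at 0.16. HK1 had no overlap in its brightest probe set (-0.82 ± 0.21), while its other probe sets lay at 0.03 to 0.20. The glycolysis list had a median of -0.07. Over the 24 lists together, the list means of the 8 arrays did not overlap for collagens, matrix glycoproteins and DNA replication, all lower, and for 0 lists upward. With median-centred arrays the matrix glycoprotein means overlapped, and after quantile normalisation the luteal steroidogenesis means did not overlap either, also lower.

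**Figure D5:**
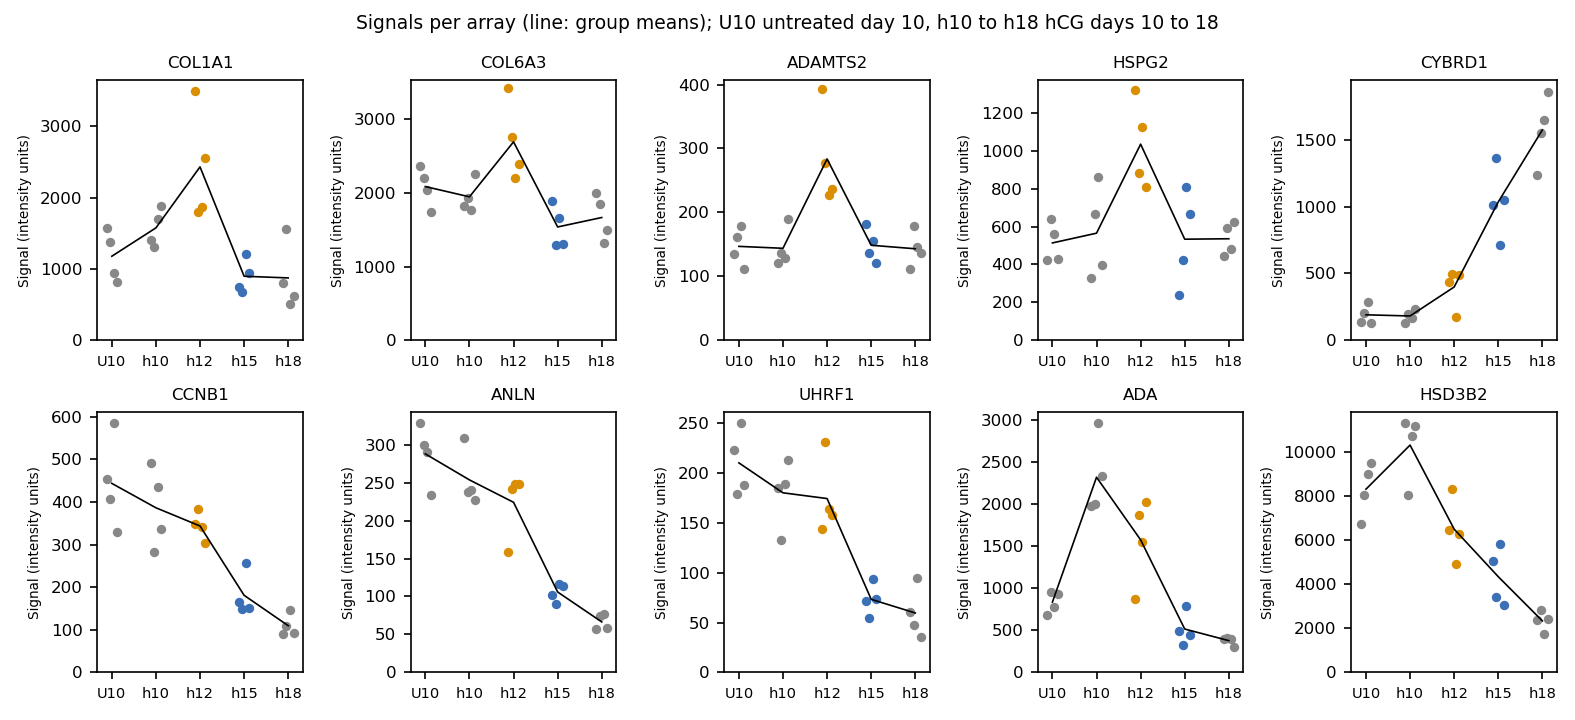
Signals (intensity units, linear axes from 0) of 10 genes in each array of untreated day 10 (U10) and hCG days 10 to 18 (h10 to h18), with lines through the group means. By group mean, COL1A1, COL6A3, ADAMTS2 and HSPG2 are highest on day 12, CCNB1, ANLN, UHRF1, ADA and HSD3B2 are lowest on day 18, and CYBRD1 is highest on day 18, at 1573.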

How the data were processed

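The authors used Affymetrix GCOS, per the submitters' processing notes, and deposited 1 linear intensity (signal) for each probe set on each array. Its version is not given in the sources used here. Every array has a 2% trimmed mean near 200.01, so arrays were scaled to a common target. Of 52865 probe sets, 158 array controls were left out. Of the 52707 tested, 24956 carry 1 gene symbol of the platform annotation (14132 symbols), 361 carry several and 27390 none. Genome positions were not used.

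Signals were taken as log2(signal + 16). All 20 arrays entered 1 limma model (version 3.58.1, R version 4.3.3, eBayes) with a coefficient for each group, and a Benjamini-Hochberg adjusted p under 0.05 counted as passing. Errors are SE of log2 differences and SD of signals. Lists used the probe set with the highest mean per gene, and 319 of 440 list genes were measured. Probe sets of the other sign with a mean signal under 100 also lay at 0.01 for TYMS, -0.05 for TMEM144, -0.11 for AIF1 and -0.15 for JCHAIN. Named genes were the 14 leading ones per direction, up to 4 members per list by smallest p and luteal reference genes. Members such as LAMB1, MKI67, KIF23, PTTG1, DLGAP5, PBK and the contractile genes were named after their values were seen. Members and lists were chosen with earlier results of these data known, as was the set of 3 arrays apart. The procedure was tested on simulated data.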

Additional observations from a re-analysis of the deposited data

Results flagged for a closer look

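In groups of 4 arrays, a single array was set well away from the other 3 in 11 of 168 groups checked (6.55%), where chance alone gives about 1 in 20. The groups were those of 60 genes and 24 lists on both days. On hCG day 12, replicate 1 had ANLN at 158, where the others had 242 to 248, LOXL1 at 632, where the others had 425 to 448, and BGN at 836, where the others had 500 to 542. Replicate 3 of hCG day 12 had CYBRD1 at 172, where the others had 436 to 496, and CSPG4 at 485, where the others had 269 to 290. The same array had a TGF-beta, activin and BMP list mean of 8.52 (log2), with the others at 8.68 to 8.71, and an apoptosis list mean of 7.11, with the others at 7.43 to 7.47. On hCG day 15, replicate 2 had TRPM3 at 376, where the others had 161 to 179. Replicate 3 of hCG day 15 had CCNB1 at 257, where the others had 150 to 165. Its T and NK cell list mean was 8.40, with the others at 8.07 to 8.11, and its heat shock list mean was 10.22, with the others at 10.07 to 10.08.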

How the results depend on the processing

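The count of 0 calls in the step became 2 with a pseudocount of 1 (both probe sets without a gene symbol), and 0 to 4 when each array was left out. It was 4 without hCG day 12 replicate 1 (2 probe sets of ADA, 1 of ANLN and 1 without a symbol) and 2 without hCG day 15 replicate 3 (ADA and 1 without a symbol). ADA was at -1.84 and ANLN at -1.11 in the former. The smallest adjusted p of limma was 0.73 when only the 8 arrays were fitted and 0.052 when the 3 arrays apart were left out. The 2744 calls of hCG day 18 against hCG day 10 became 1468 with 1 probe set per gene, where fewer features were tested, and 1834 to 2345 when an array was left out. The replicate numbers did not pair the arrays: deviations of same-numbered arrays correlated at -0.186 to 0.163, with 1 of 4 pairs over 0.1. A replicate block gave 0 calls in the step and 2773 in the other comparison.

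The medians of the collagen, cell cycle, matrix glycoprotein and smooth muscle lists stayed below 0 in every setting run. When an array was left out they ran from -0.67 to -0.43, -0.53 to -0.37, -0.33 to -0.20 and -0.25 to -0.19. All 28 leading genes kept their sign in the step wherever they were fitted (19 of them with 1 probe set per gene). Their ranking required arrays without overlap, so leaving out or weighting arrays, or another pseudocount, could not reverse a sign. For those settings the outcome was fixed by the selection. Of 1376 values for 73 genes, 9 reversed, all of STAR (-0.17 to 0.17 when an array was left out) or CYP19A1 (-0.21 to 0.23). Most of the 73 genes were chosen by a small p in this same step, which makes a reversal unlikely. The low count of reversals therefore does not show that the signs are robust. CYP19A1 was at 0.06 without hCG day 12 replicate 1, 0.01 without hCG day 12 replicate 4, 0.23 without hCG day 15 replicate 2 and 0.33 without the 3 arrays apart. STAR was at 0.17, 0.02 and 0.01 without the same single arrays, 0.06 without hCG day 15 replicate 4 and 0.20 without the 3 arrays apart. Single arrays also moved other genes that did not pass by over 1.5 times. CYP17A1, at 0.46, was 0.24 without hCG day 12 replicate 4, and IDI1, at 0.33, was 0.19 without it. The number of arrays limits all of these values.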
